A study of Mus musculus with 10 samples.

Results

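Hybrid cells from GFAP-Cre recipient mice were compared with hybrid cells from R26Y recipients, gene by gene, on 4 of the 10 arrays of the series. Membership follows the recipient and sort labels, with no measured value in the rule, which gives 2 replicates per recipient, all on 1 slide. In every group the mice had been treated with MPTP, a toxin of dopaminergic neurons, and had received lineage-negative haematopoietic stem and progenitor cells (HSPCs) from donor bone marrow over the substantia nigra of 1 hemisphere, 3 days after the last MPTP injection. Red and yellow (RFP+YFP+) cells, taken as fusions of a graft cell with a recipient cell, were sorted 1 week after the graft. R26Y recipients bear the R26Y allele, from which Cre recombination turns on YFP, and were grafted with HSPCs carrying Cre and RFP, so that fusion with any reporter-bearing recipient cell can give a yellow cell. GFAP-Cre recipients express Cre where the promoter of Gfap is active and received HSPCs with the R26Y reporter, so that yellow marks fusion with a Cre-expressing cell. For these HSPCs the labels name the reporter only, although the sort was again for RFP and YFP. Donor and recipient genotypes both differ between the groups, and their parts in any difference cannot be told apart. Each replicate is a pool of cells from 2 mice, and the age and sex of the mice are not given in the labels. The comparison asks how hybrids made with astroglia differ from hybrids made with whichever recipient cell took part.

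Gfap encodes an intermediate filament of astrocytes, and Cre driven by its promoter labels astroglia. Blood progenitors that enter injured brain can take on traits of macrophages, and the brain's resident macrophages, the microglia, share much of their lysosomal and complement gene programme with them. Progranulin, the product of Grn, and the hexosaminidase subunit encoded by Hexa work in lysosomes, while C1qc encodes a chain of the complement protein C1q.

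The probes below are those on which the results turn. Each is given by its first 30 of 60 bases, with the position of the probe on mouse build mm9 as the array files give it. Capitals mark bases that lie in a run of 20 or more shared, on either strand, with a probe of another gene, so that lower case throughout means no such sharing in the part shown. Grn (chr11:102297692-102297751) is shown as a gene among the smallest p on the higher side in GFAP-Cre hybrids. C1qc (chr4:136445766-136445825) and P2ry12 (chr3:59020598-59020657) are shown as the microglial genes described. Hgsnat (chr8:27054931-27054949, the part of the probe that the file places) and Glrx (chr13:75986983-75987042) are shown as genes among the smallest p on the lower side. Itgam (chr7:135261755-135261814), Snap25 (chr2:136607709-136607768) and Olfr952 (chr9:39234508-39234567) are shown because their probes cannot be read as 1 gene. Grn, Glrx, Itgam and Snap25 lie on the plus strand and the others on the minus strand. Whether a probe lies in coding sequence or in a UTR was not analysed here.
Grn: tccactgttcagccaggggaaccaagtgtt
C1qc: tctgggaaccacctaatggtattattcctg
P2ry12: tgcacattaagatggtagaggtttaaaagg
Hgsnat: acaaaaagaaccaagtcttatttcctgaaa
Glrx: tgttgctggttttctgctactgttcgtcag
Itgam: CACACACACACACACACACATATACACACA
Snap25: CACACACACACACACACACAAAgtggattt
Olfr952: atCTTCCTATCTGTCTATTTGTTTACAGTT

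No gene passed the correction between the groups, and the R26Y replicates differed from each other more than GFAP-Cre hybrids differed from R26Y replicate 1. Levels are given as log2 scaled signal, the log2 of an array's processed signal minus the 75th percentile of its brightly detected spots, so that a difference of 1 is a factor of 2. Background, taken as the lowest signal among probes well above background, lay at -6.60 and -7.41 on GFAP-Cre replicates 1 and 2 and at -7.29 and -6.78 on R26Y replicates 1 and 2. Of 32204 genes tested, 23370 were well above background on all 4 arrays. Each SE and limma p draws on the spread within all 5 groups of the 10 arrays, not on the 4 hybrid arrays alone. The other groups are pooled unfused cells, FoxA2-Cre hybrids and FoxA2-Cre unfused cells, with 2 arrays each. The FoxA2-Cre arrays, from recipients of another genotype, lie on another slide. They were dimmer, with 19.8% to 49.2% of spots well above background, and they enter every SE given here. In limma, 0 genes passed an adjusted p of 0.05 in either direction (0.0% of genes). An unadjusted p under 0.05 was found for 886 genes (2.75%), 675 of them higher in GFAP-Cre hybrids (2.1%) and 211 lower (0.655%). The excess on the higher side depended on the scaling, since 76.2% of the genes with such a p were higher here and 50.3% to 65.1% under 5 other scalings. The higher side became the smaller one without R26Y replicate 2 (40.8%) and with quantile normalisation on the 6 arrays of the slide (42.4%, a setting chosen after seeing the data). The 2 groups of arrays did not overlap for 6493 genes higher in GFAP-Cre hybrids (20.2%) and 2412 genes lower (7.49%). The log2 difference was above 0 for 66.8% of genes. Its median over all genes was 0.29, and it lay between -0.07 and 0.10 under those 5 scalings, so a gene's difference is read beside that shift. The genes named below for the smallest p kept their direction under each of those scalings, but differences of dim genes were smaller with normexp background correction and in the authors' matrix (Grn 0.91 and 0.96, Bcl2a1d 2.11 and 2.31, C1qc 1.98 and 2.24).

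R26Y replicate 2 stood apart. Spots well above background made up 64.3% on that array and 81.4% to 84.1% on the other 3. Its median processed signal over all spots was 33.2, against 90.6 to 117 on the others. Across genes, Spearman's rho was 0.678 between the R26Y replicates, 0.904 between the GFAP-Cre replicates, and 0.931 and 0.914 between R26Y replicate 1 and GFAP-Cre replicates 1 and 2. R26Y replicate 2 gave 0.696 and 0.712 with the GFAP-Cre arrays and 0.687 and 0.693 with the 2 arrays of unfused (RFP+) cells on the slide, pooled from both recipients. R26Y replicate 1 gave 0.948 and 0.969 with those unfused arrays. These values are across genes, which are not independent replicates.

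The mean of the GFAP-Cre replicates lay close to R26Y replicate 1 for most genes. Its difference from replicate 1 had a median of 0.03 (interquartile range -0.35 to 0.38), and 16.0% of genes were more than 1 log2 unit away. Its difference from replicate 2 had a median of 0.56 (interquartile range -0.24 to 1.66), and 49.0% of genes were more than 1 away. For scale, 24.9% of genes were more than 1 apart between the GFAP-Cre replicates and 52.5% between the R26Y replicates. These compare single arrays, whereas the values above use a mean of arrays. Taken singly, GFAP-Cre replicates 1 and 2 were more than 1 from R26Y replicate 1 for 19.0% and 22.5% of genes. From R26Y replicate 2 they were more than 1 away for 54.0% and 46.6%. In all, 12681 genes were more than 1 from R26Y replicate 2 and within 1 of replicate 1, and 2059 genes were the reverse. GFAP-Cre hybrids lay more than 1 above both R26Y arrays for 1172 genes and more than 1 below both for 374, while 1535 genes lay more than 1 above one and more than 1 below the other.

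**Figure D1:**
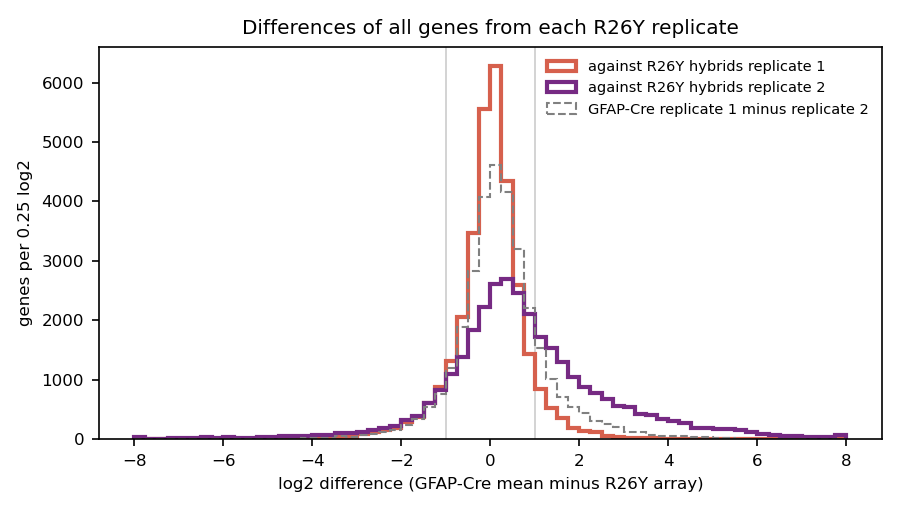
Number of genes (vertical axis, per 0.25 log2 units) by log2 difference between the mean of the GFAP-Cre hybrids and R26Y hybrids replicate 1 (red) or replicate 2 (purple), with the difference between the GFAP-Cre replicates as a dashed line and differences beyond 8 counted in the end bins. The red curve is narrow around 0.03, and the purple curve is broad and shifted to a median of 0.56.

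Detection followed the same split. There were 4479 genes (13.9%) well above background on every hybrid array except R26Y replicate 2, against 219 on every one except R26Y replicate 1, 372 on every one except GFAP-Cre replicate 1 and 209 on every one except GFAP-Cre replicate 2. Only 361 genes (1.12%) were well above background on both GFAP-Cre arrays and neither R26Y array, and 129 (0.40%) showed the reverse. The gap between the R26Y replicates also varied with the base composition of the probe. Its median fell from 1.07 for probes of 15% to 36.7% GC to 0.20 for probes of 51.7% to 91.7% GC, whereas the median difference of GFAP-Cre hybrids from R26Y replicate 1 ran from -0.03 to 0.09 over the same classes. The arrays also lay in 2 rows of the slide. In row 1 the median of GFAP-Cre replicate 1 minus R26Y replicate 2 was 0.70, and in row 2 that of GFAP-Cre replicate 2 minus R26Y replicate 1 was -0.05. With 1 array per group in a row, row and replicate cannot be told apart. What part signal, base composition or row has in the gene values was not tested.

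Among the 10 genes with the smallest p on the higher side were Bcl2a1d, Olfr11, Zfp558, Grn, Trim63, Dedd2, Rnft1, Tsfm and Ranbp9. Their fitted log2 differences ran from 2.16 to 4.95. The choice of genes required detection well above background on both GFAP-Cre arrays, and arrays that do not overlap. The limma adjusted p was 1.00 for all these genes. All but Grn and Dedd2 were not well above background on either R26Y array.

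Grn, for progranulin, was at -3.47 and -4.07 in GFAP-Cre replicates 1 and 2 and at -6.59 and -6.34 in R26Y replicates 1 and 2. Both R26Y arrays sat low and close together, clear of the GFAP-Cre arrays, and so did the 2 unfused arrays, at -7.14 and -7.62. The log2 difference between the hybrid groups was 2.70 ± 0.53 (SE, limma p 0.00103). In Grn and Rnft1, unlike the others named, R26Y replicate 1 was the lowest hybrid array, but levels so near background carry no order.

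Bcl2a1d encodes a relative of Bcl2 that protects blood cells from cell death and belongs to a cluster of near-identical copies, whose reads on this probe may be mixed. Its levels were -2.56 and -3.30 in GFAP-Cre hybrids and -7.10 and -8.65 in R26Y hybrids. The log2 difference was 4.95 ± 0.67 (SE, limma p 9.33e-05), the smallest p of any named gene. It was at least 16.1-fold higher in GFAP-Cre hybrids, where "at least" sets the mean of the brighter group against the background level in the dimmer one. The unfused arrays lay between the groups, at -4.86 and -5.44.

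Among the remaining genes on the higher side, the bounds were at least 6.09-fold for Ranbp9, which encodes a scaffold protein of an E3 ligase complex, and at least 5.68-fold for Rnft1. Smaller bounds, from at least 2.40-fold to at least 3.42-fold, held for the muscle ubiquitin ligase gene Trim63, the zinc finger gene Zfp558, the olfactory receptor gene Olfr11 and Tsfm, for a mitochondrial translation elongation factor. Dedd2, for a death effector domain protein, differed by 2.65 ± 0.60 (SE). Second probes of Trim63, Rnft1, Tsfm and Ranbp9 did not show the difference. Those of Rnft1, Tsfm and Ranbp9 were not well above background on any of the 4 arrays. The second Trim63 probe read -8.57 and -6.53 in GFAP-Cre hybrids and -8.15 and -5.93 in R26Y hybrids.

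**Figure D2:**
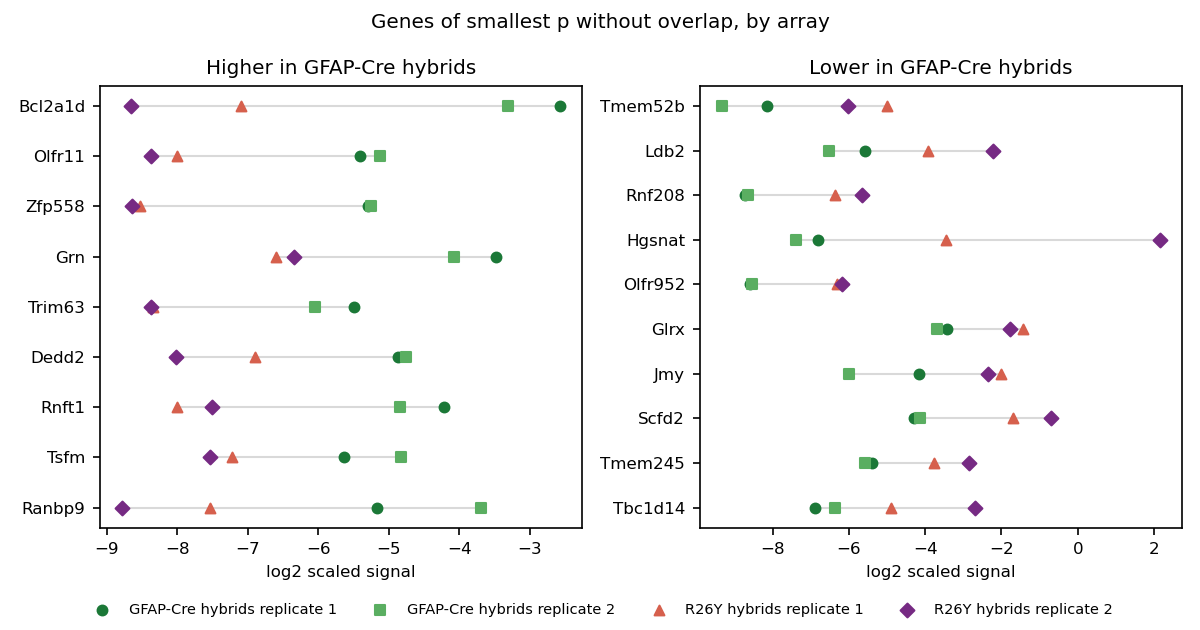
Log2 scaled signal (horizontal axis) of the genes named for the smallest p on each side, among genes with arrays that do not overlap, with 1 symbol per array and grey lines from the lowest to the highest array. On the higher side both R26Y arrays lie near background, while on the lower side R26Y replicate 2 is far above replicate 1 for Hgsnat (2.16 against -3.45).

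On the lower side the 10 genes were Tmem52b, Ldb2, Rnf208, Hgsnat, Olfr952, Glrx, Jmy, Scfd2, Tmem245 and Tbc1d14, with fitted log2 differences from -6.45 to -1.96. Here too every limma adjusted p was 1.00. Glrx, for the redox enzyme glutaredoxin, was at -3.44 and -3.69 in GFAP-Cre hybrids and at -1.44 and -1.77 in R26Y hybrids. Replicates lay close together in both groups, and the unfused arrays, both at -1.87, lay with the R26Y hybrids. Its log2 difference was -1.96 ± 0.49 (SE, limma p 0.00412).

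Hgsnat encodes the lysosomal membrane enzyme that acetylates heparan sulfate. It was at -6.82 and -7.38 in GFAP-Cre hybrids, not well above background, and at -3.45 and 2.16 in R26Y hybrids. The bound of at least 81.3-fold lower is the widest on either side among genes without a provisional name. It rests on R26Y replicate 2, since replicate 1 minus replicate 2 was -5.61 on the log2 scale, while replicate 1 lay with the unfused arrays at -4.06 and -3.86. Ldb2, for a cofactor of LIM-domain transcription factors, was at -5.59 and -6.52 against -3.93 and -2.22, with a log2 difference of -2.98 ± 0.69 (SE).

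Scfd2, for a protein of the vesicle trafficking family, was at -4.29 and -4.13 against -1.70 and -0.71, a log2 difference of -3.00 ± 0.83 (SE). Another Scfd2 probe, well above background on all 4 arrays, did not show it, at -5.43 and -6.11 against -6.49 and -6.42. Jmy, for an actin nucleator that also acts with p53, differed by -2.89 ± 0.74 (SE), and Tbc1d14, for a Rab-GTPase regulator of autophagy, by -2.83 ± 0.81 (SE). Olfr952 shares its probe sequence with Olfr955, so its difference of -2.32 cannot be assigned to either gene. Tmem52b, Rnf208 and Tmem245 differed by -3.24, -2.67 and -2.17. The second Tmem245 probe, well above background on 3 arrays, did not show it, at -5.32 and -4.57 against -4.27 and -7.37.

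By size of the bound, Zbtb12 (at least 23.2-fold higher), Itgax (at least 11.2-fold) and Rab3il1 (at least 9.22-fold) were among the 5 widest on the higher side, with Bcl2a1d. Itgax, for the integrin CD11c of dendritic cells and activated microglia, was at -3.86 and -3.05 in GFAP-Cre hybrids and at -7.10 and -7.67 in R26Y hybrids. Both R26Y arrays sat near background, and the unfused arrays were at -5.74 and -8.40. The log2 difference was 3.93 ± 0.93 (SE, limma p 0.00315). Rab3il1 rests more on GFAP-Cre replicate 2, at -1.72 against -5.93 in replicate 1. On the lower side the widest bounds after Hgsnat were Rufy4 (at least 25.9-fold lower), Mtmr1 (at least 20.9-fold), Ppp3cb (at least 18.4-fold) and Surf4 (at least 10.6-fold). In each of these 4 genes R26Y replicate 2 was at -0.99 to 1.61 and R26Y replicate 1 at -6.79 to -5.57, so the bound comes from 1 array.

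Astrocyte genes did not separate the hybrids made with Gfap-driven Cre from the others. Gfap itself was at -3.43 and -4.20 in GFAP-Cre hybrids, at -3.79 and -5.11 in R26Y hybrids and at -2.55 and -2.79 on the unfused arrays. The hybrid arrays overlapped, and the log2 difference was 0.64 ± 0.70 (SE, limma p 0.393), near the median of all genes and below 0 with the authors' matrix. A second Gfap probe gave -4.06 and -4.22 against -4.30 and -4.27, and another was not well above background on any hybrid array. Aqp4, for the astrocyte water channel, spanned -1.22 to -0.99 over the 4 arrays. Its log2 difference of 0.09 ± 0.73 (SE) was below 0 with normexp, the authors' matrix and both other percentiles.

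Of 16 astrocyte genes listed, 14 were tested. Their median log2 difference was 0.33, against 0.29 for all genes, and -0.05 against R26Y replicate 1 alone. Gjb6, for the astrocyte gap junction protein connexin 30, did not overlap and was higher, at -4.65 and -3.42 against -5.89 and -7.59 (2.70 ± 1.01, SE, limma p 0.0290). Mlc1, for a membrane protein of astrocyte end feet, did not overlap and was lower, at -8.58 and -7.99 against -5.59 and -6.80 (limma p 0.0340, at least 1.76-fold lower). Of the hybrid arrays, only R26Y replicate 1 was well above background for Mlc1. Neither Gjb6 nor Mlc1 passed the correction (limma, adjusted p 1.00), and the other 12 overlapped. Aldh1l1, for a folate enzyme of astrocytes, differed by 0.56 ± 0.73 (SE), and was below 0 with normexp and the authors' matrix. S100b, for a glial calcium-binding protein, differed by -0.41 ± 1.10 (SE). Slc1a3, for an astrocyte glutamate transporter, was not tested, since it was too dim. The reactive astrocyte list had a median of 0.44 (14 genes), with 3 genes higher without overlap and 0 lower, beside 20.2% and 7.49% of all genes.

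Some genes of microglia and lysosomes were higher in GFAP-Cre hybrids than on both R26Y arrays, but the microglia list median was below that of all genes. Of 15 microglial genes tested, 4 were higher without overlap and 2 lower, with 3 at an unadjusted limma p under 0.05, all higher. Of 22 lysosome and phagocytosis genes, 8 were higher without overlap and 1 lower, with 4 and 1 at an unadjusted p under 0.05. The shares of all genes were 20.2% and 7.49% without overlap, and 2.1% and 0.655% at an unadjusted limma p under 0.05. Beside them these are counts of a few genes, and 0 members of either list passed the correction. The list medians were 0.06 for microglia and 0.41 for lysosome and phagocytosis, beside 0.29 for all genes. Of the 15 microglial genes, 4 lay above that median of all genes and 7 had a difference below 0.

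C1qc was at -2.36 and -2.94 in GFAP-Cre hybrids and at -5.37 and -8.76 in R26Y hybrids, with a log2 difference of 4.42 ± 1.25 (SE, limma p 0.00828). R26Y replicate 2 was at background and replicate 1 lay between, as did the unfused arrays at -3.77 and -6.33. P2ry12, for the purinergic receptor by which microglia sense ATP, was at -4.16 and -3.81 against -5.11 and -8.69, a log2 difference of 2.92 ± 1.09 (SE, limma p 0.0289). In both genes R26Y replicate 1 was nearer to the GFAP-Cre arrays than replicate 2 was. Ctsl, for cathepsin L, was at -3.68 and -7.15 against -9.15 and -8.67, at least 3.07-fold higher, with most of the gap in GFAP-Cre replicate 1. Hexa went the other way, at -7.16 and -6.22 against -5.00 and -5.55 (-1.42 ± 0.57, SE, limma p 0.0387).

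Other genes of the same lists put the GFAP-Cre hybrids between the R26Y replicates. The 5 described here were chosen after their values were seen. Apoe, for the lipid carrier apolipoprotein E, was at 2.63 and 1.92 in GFAP-Cre hybrids, -0.14 in R26Y replicate 1 and 4.05 in R26Y replicate 2. Ctsb, for cathepsin B, was at 1.81 and 1.38, with -0.64 and 3.15 in the R26Y replicates. Ctss, for cathepsin S, was at 0.95 and -0.64, with -2.32 and 1.92. The lipid-sensing receptor gene Trem2 was at -0.89 and -2.33, with -3.07 and 3.03, and the microglial gene Aif1 at -2.63 and -2.04, with -3.74 and 1.43. In each of the 5, R26Y replicate 1 was the lowest and replicate 2 the highest of the 4 arrays. Their differences therefore changed sign with the R26Y replicate used. Gpr34, for a lysophospholipid receptor of microglia, was also high in R26Y replicate 2 only (1.63, against -3.77 to -2.66 on the other hybrid arrays). Against R26Y replicate 1 alone, the lysosome list had a median of 1.04 (all genes 0.03), the largest of the 28 lists, and against replicate 2 alone 0.46 (all genes 0.56). Fewer cells of a type and less RNA of a gene per cell cannot be told apart on these arrays.

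**Figure D3:**
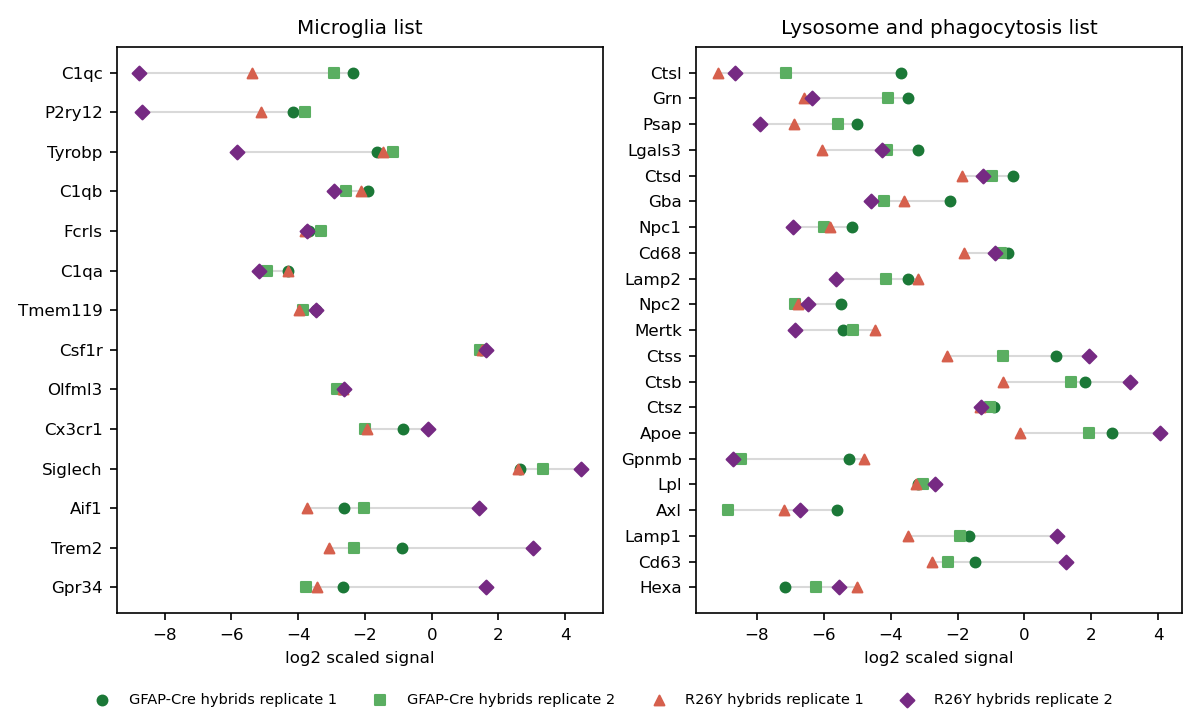
Log2 scaled signal (horizontal axis) of tested genes of the microglia list and the lysosome and phagocytosis list, ordered by fitted difference, with 1 symbol per array. At the top the GFAP-Cre arrays lie above both R26Y arrays (C1qc -2.36 and -2.94 against -5.37 and -8.76), and further down R26Y replicate 2 is the highest array for Apoe (4.05), Trem2 (3.03) and others.

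Markers of blood and of other brain cells did not pass the test in either direction. Ptprc, for the leukocyte antigen CD45, differed by -0.09 ± 0.51 (SE), with arrays between -3.35 and -2.68. Kit, for the stem cell factor receptor, differed by 0.23 ± 0.61 (SE), and was below 0 with quantile normalization, normexp, the authors' matrix and the percentile over all probes. Mpo, for the granule enzyme myeloperoxidase, was between -7.35 and -5.85 on the 4 hybrid arrays compared, against -0.70 and -3.89 on the unfused arrays. It differed by 0.45 ± 1.05 (SE), with a sign below 0 under quantile normalization, normexp and the authors' matrix. Its other probe, well above background on these 4 arrays, overlapped too, at -4.74 and -5.39 in GFAP-Cre hybrids and -5.60 and -4.57 in R26Y hybrids. Cx3cr1, for the fractalkine receptor, differed by -0.42 ± 0.86 (SE) on a probe shared with 1 unnamed transcript, and by 0.05 on its other probe. Th, for the rate-limiting enzyme of dopamine synthesis, spanned -0.80 to -0.19 and differed by 0.22 ± 0.57 (SE), with a sign below 0 under normexp, the authors' matrix and the percentile over all probes. Foxa2, for a transcription factor of the ventral midbrain, differed by -0.24 ± 1.17 (SE) on its brightest probe, and by 1.64 when its probes were averaged. Its other probe read -5.32 and -5.67 in GFAP-Cre hybrids and -9.33 and -8.69 in R26Y hybrids, where it was not well above background. Among the lists, stem and progenitor cells of blood had a median of 0.29, monocytes and macrophages 0.38, neutrophils 0.55, lymphoid cells 0.60, erythroid cells 0.25, neurons 0.32, dopaminergic neurons 0.13, oligodendrocytes 0.06, radial glia and neural progenitors 0.44, endothelium and pericytes 0.10 and ependyma and choroid plexus 0.22. All genes had a median of 0.29. Against R26Y replicate 1 alone, these 11 list medians ran from -0.28 (ependyma and choroid plexus) to 0.28 (radial glia and neural progenitors), with 0.03 for all genes. Against replicate 2 alone they ran from 0.15 (endothelium and pericytes) to 1.13 (neutrophils), with 0.56 for all genes. Neutrophils were at 0.11 and lymphoid cells at 0.13 against replicate 1. No member of these 11 lists had an unadjusted limma p under 0.05.

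Itgam, for the macrophage integrin CD11b, was read by a probe of CA repeats. Its level of 5.46 and 5.70 in GFAP-Cre hybrids and of 5.26 and 6.68 in R26Y hybrids is shared with probes of 72 other genes. Its 2 other probes gave -1.33 and -2.19 against -1.02 and -2.75, and -2.13 and -4.06 against -2.34 and -3.28, with overlap in both. There were 76 genes read by a probe with a CA repeat of at least 20 bases, Snap25 among them. R26Y replicate 2 was above the GFAP-Cre mean in 76 of these 76 genes and in 10086 of the 32128 other genes. The median difference (GFAP-Cre minus R26Y replicate 2) was -0.83 for the 76 and 0.57 for the others. Their probes share the repeat, so the 76 are not separate observations. Against R26Y replicate 1 the same 76 genes had a median of 0.21. Probes that share sequence with another gene made up 18.7% of the genes lower in GFAP-Cre hybrids without overlap, 9.80% of those higher and 12.9% of all genes.

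Among secreted factors, Fgf20 was read by 2 probes that placed the groups in the same order. It encodes a growth factor that supports dopaminergic neurons and was at -3.01 and -3.27 in GFAP-Cre hybrids and at -5.12 and -5.64 in R26Y hybrids, a log2 difference of 2.24 ± 0.71 (SE, limma p 0.0138, adjusted p 1.00). Its second probe was at -2.93 and -3.35 against -5.35 and -8.18. Both probes put both GFAP-Cre arrays above both R26Y arrays, and the unfused arrays (-4.59 and -5.19) lay closer to the R26Y hybrids. Igf1, for a growth factor made by microglia among other cells, was at 0.81 and 0.79 against 0.10 and -1.88 (1.69 ± 0.78, SE, limma p 0.0636). The 3 other Igf1 probes that were well above background on all 4 arrays did not show it, at -2.07 and -3.17 against -2.35 and -2.67, at -5.63 and -4.53 against -4.64 and -5.55, and at -5.33 and -4.54 against -5.29 and -4.28. Of 13 neurotrophic factor genes tested, 4 were higher without overlap and 0 lower, beside 20.2% and 7.49% of all genes, with a median of 0.65. Against R26Y replicate 1 alone that median was -0.09.

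No Wnt gene passed the correction. Wnt1 was at -0.85 on both GFAP-Cre arrays and at -0.73 and 0.34 in R26Y hybrids, a log2 difference of -0.65 ± 0.57 (SE, limma p 0.285). The GFAP-Cre mean differed by -0.12 from R26Y replicate 1 and by -1.19 from replicate 2. A second Wnt1 probe, well above background on all 4 arrays, overlapped, at -1.49 and -1.67 against -1.53 and -1.08. The 17 Wnt ligands tested had a median of 0.01, with 2 higher and 3 lower without overlap (20.2% and 7.49% of all genes). Wnt9a, well above background on 1 of the 4 arrays, was at least 1.35-fold higher (limma p 0.0307). Among 20 Wnt receptors and modulators the median was 0.08, and Rspo1, for a secreted amplifier of Wnt signalling, was at least 1.92-fold lower (limma p 0.0419). Fzd2, for a Wnt receptor, was at -1.97 and -0.74 in GFAP-Cre hybrids and -1.17 in R26Y replicate 1, and at -8.66 in replicate 2, while its second probe, at -4.81 and -4.38 against -5.48 and -6.23, showed a smaller gap. The 14 Wnt targets had a median of 0.29, that of all genes.

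The stress list (12 genes tested), the interferon list (15) and the cell cycle list (17) each held 1 member with an unadjusted limma p under 0.05. With 2.75% of all genes under that p, 1 member is no result about a list. Atf3, a stress-induced transcription factor gene, was at -4.14 and -3.31 against -6.08 and -5.90, a log2 difference of 2.26 ± 0.80 (SE, limma p 0.0227). The R26Y replicates lay close together here, and the unfused arrays were at -4.50 and -5.99. Oasl2, an interferon-induced gene, was at -5.09 and -7.41 against -9.37 and -8.74, at least 1.72-fold higher (limma p 0.0137), and was well above background on GFAP-Cre replicate 1 only. Top2a, for the topoisomerase of dividing cells, was at -5.88 and -5.75 against -6.96 and -8.47, at least 2.08-fold higher (limma p 0.0379). The list medians were 0.40 for immediate early and stress genes, 0.57 for the interferon response and 0.70 for the cell cycle, and 0.16, -0.28 and -0.11 against R26Y replicate 1 alone. The p53 response had a median of 0.44, cell fusion and migration 0.25, pluripotency -0.27 and inflammatory mediators -0.31, with 0 members at an unadjusted limma p under 0.05. The last 2 were below 0 against R26Y replicate 2 only. Against replicates 1 and 2 alone, pluripotency had medians of 0.35 and -0.50, and inflammatory mediators of 0.20 and -0.57. The p53 response had 0.21 and 0.24, and cell fusion and migration 0.38 and 0.28.

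**Figure D4:**
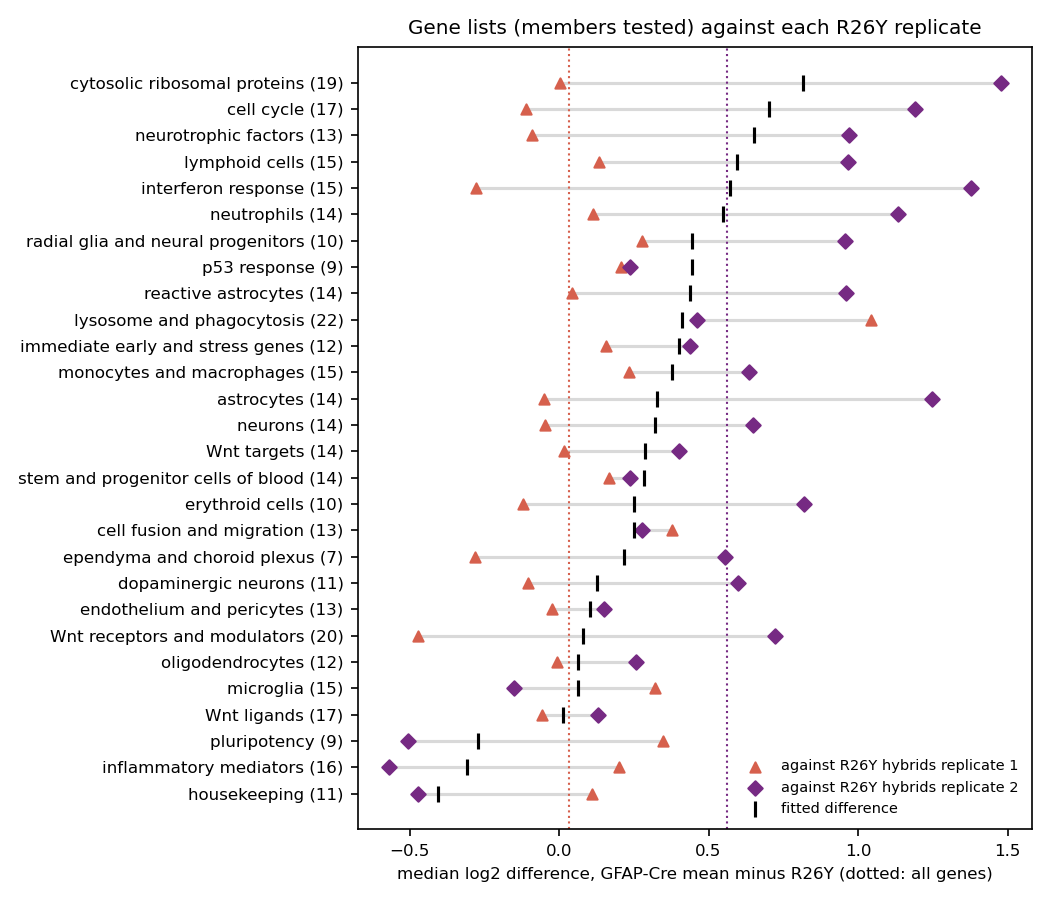
Median log2 difference of each gene list (horizontal axis, GFAP-Cre mean minus R26Y), with red triangles against R26Y replicate 1, purple diamonds against replicate 2, black bars for the median of the fitted differences, and dotted lines for all genes (0.03 and 0.56). Ribosomal protein genes are at 0.00 against replicate 1 and 1.48 against replicate 2, and the lysosome list is the furthest right against replicate 1 (1.04).

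In the genes that most divided the R26Y replicates, GFAP-Cre hybrids lay nearer to replicate 1 than to replicate 2. Of the genes detected on all 4 arrays, Efr3a, Klra9, Tuba1b, Cylc2 and Ppargc1a had the largest excess in R26Y replicate 1, which lay at 0.97 to 2.56 for these 5, against -6.36 to -4.76 in replicate 2. The GFAP-Cre arrays were at 0.27 to 2.93, with R26Y replicate 1 rather than replicate 2. Tuba1b, for a tubulin of the cytoskeleton, was at 1.12 and 1.26 in GFAP-Cre hybrids and at 2.56 and -4.76 in R26Y hybrids, but its second probe read -3.43 and -3.35 against -3.70 and -3.51. A second Efr3a probe, well above background on all 4 arrays, likewise had no such gap, at -3.84 and -4.40 in R26Y replicates 1 and 2. In the other direction L3mbtl3, Bub1b, Tmem86a, Zdhhc21 and Ceacam12 were at 2.24 to 3.51 in R26Y replicate 2. They were at -6.30 to -4.61 in replicate 1, with the GFAP-Cre arrays at -6.62 to -3.08. The GFAP-Cre mean minus replicate 1 was 1.60 for L3mbtl3, 1.70 for Tmem86a, 2.15 for Zdhhc21 and 1.24 for Ceacam12. It was -0.11 for Bub1b and, among the first 5 genes, -1.37 for Tuba1b. The other Ceacam12 probes ran the opposite way, with R26Y replicate 2 the lowest array on both (-7.86 against -5.41 in replicate 1, and -5.86 against -2.89). Bub1b, for a mitotic checkpoint kinase, was at 3.28 in replicate 2 and between -6.62 and -4.99 on the other hybrid arrays.

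Ribosomal protein genes followed the same split. Of 19 tested, 3 were higher in GFAP-Cre hybrids without overlap and 0 lower, beside 20.2% and 7.49% of all genes. Their median was 0.00 against R26Y replicate 1 and 1.48 against replicate 2. Rpl3 was at -0.40 and -0.19 in GFAP-Cre hybrids, -0.37 in R26Y replicate 1 and -6.43 in replicate 2, and its second probe, not shared with other genes, gave -6.44 in replicate 2 and -0.57 to -0.27 elsewhere. Rps19 was at -7.98 in replicate 2 and between -3.00 and -2.52 on the other arrays. Rps9 was the opposite, at 2.38 in replicate 2 and between -1.85 and -0.35 on the others. Single arrays near background in replicate 2 also gave the fitted differences of Birc5 (3.63), Klf4 (3.79), Pmaip1 (4.26), Gap43 (3.02) and S100a8 (2.73), whose levels in replicate 2 were -8.16, -8.78, -8.61, -6.92 and -8.78. Without replicate 2 these differences were between -0.54 and 0.37. The 2 other Birc5 probes, well above background on all 4 arrays, gave -4.81 and -2.72 in replicate 2 and -5.05 to -3.23 elsewhere. Of the housekeeping genes, Hprt was at 0.44 in replicate 2 and between -6.42 and -5.86 elsewhere, and B2m, for the light chain of class I histocompatibility molecules, was at -4.67 and -5.86 in GFAP-Cre hybrids and at -6.49 and -8.68 in R26Y hybrids (2.31 ± 0.89, SE, limma p 0.0321).

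Leaving out R26Y replicate 1, so that replicate 2 alone stood for R26Y hybrids and was assumed to vary like the other groups, gave 2181 genes past the adjusted threshold in limma, 1767 of them higher in GFAP-Cre hybrids. Leaving out R26Y replicate 2 instead gave 0 genes, with 655 at an unadjusted p under 0.05. Of these, 267 were higher in GFAP-Cre hybrids and 388 lower, the reverse of the 675 and 211 found with every array.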

How the data were processed

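Scanner files of the 4 hybrid arrays, with the other 6 arrays of the series for the spread, were used. Per the labels' protocols, sorted-cell RNA went through whole-transcriptome amplification before Cy3 labelling of 500 ng of double-stranded cDNA, so sense and antisense transcripts cannot be told apart. The deposited processed, mean and background signals are intensities from Agilent Feature Extraction 10.7.3.1, per the file headers, background-subtracted within each array and not normalised between arrays. The deposited 0 or 1 marks per spot, per the file headers, give spots well above background and non-uniform spots, which were left out. A matrix of log2 values was supplied by the authors too, and its normalisation is not given in the sources used here. It was used as an alternative.

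Each array held 62976 spots for 55681 non-control probes of 60 bases. Names come from the array files and were updated through RefSeq accessions (table of GRCm38.p6, used for names only): 27522 probes matched, 2830 of them changed name, and 28159 kept the file's name. Positions are those of the files, on mm9. There were 0 columns of unmatched samples.

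Values are log2 processed signal minus the array's 75th percentile over the 9510 spots well above background on all 10 arrays. A probe needed to be well above background on at least 2 of the 10 arrays, and a gene took its brightest probe by mean. Where a spot of a gene was left out on an array, the fit used the other arrays. The test was limma 3.58.1 in R 4.3.3 (5 group means over 10 arrays, 5 residual degrees of freedom, two-sided, Benjamini-Hochberg over all genes, threshold 0.05), tested on simulated data. P-values measure the spread between pools of mice and between single hybridisations alike, which the labels do not separate. The number of arrays limits the precision.

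Genes named are: the 10 of smallest p on each side among genes with arrays that do not overlap and that are well above background on both arrays of the higher group; a set always reported (Gfap, Aqp4, Slc1a3, Aldh1l1, S100b, Th, Foxa2, Wnt1, Ptprc, Kit, Itgam, Cx3cr1, Mpo and Grn); up to 4 list members of smallest p; the 5 genes that most divide the R26Y replicates each way; and the 5 widest bounds on each side. Genes with provisional names were passed over, and 2 genes that the rule names are not reported here. The arrays, the 28 gene lists and the rule were chosen with earlier results of these data known. The alternatives were normexp background correction (offset 50), quantile normalisation, the authors' matrix, other percentiles, filters, probe choices, array weights, blocks for the row or column of the slide or for replicate number, fewer arrays in the fit and leaving out each array.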

Additional observations from a re-analysis of the deposited data

How the results depend on the processing

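Over 29 other settings, the count of genes past the adjusted threshold in limma was 0 in every one except without R26Y hybrids replicate 1, so that leaving out single arrays gave 0 to 2181. Genes at an unadjusted p under 0.05 numbered 886, and 357 (only genes well above background on all 4 hybrid arrays) to 3690 (slide column as a block) under settings that keep every array. GFAP-Cre and R26Y replicates share numbers, but nothing in the labels pairs them. With the replicate number as a block the count was 0 (797 at an unadjusted p under 0.05), and the correlation of same-numbered deviations was 0.073. Genes with a log2 difference above 0 made up 66.8%, and 46.2% to 55.7% under the 5 other scalings.

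Some differences changed sign. With the authors' matrix these were Gfap -0.027, Aqp4 -0.27, Aldh1l1 -0.13, Th -0.054, Kit -0.26 and Mpo -0.13. With normexp they were Aqp4 -0.21, Aldh1l1 -0.0052, Th -0.085, Kit -0.028 and Mpo -0.16. With the percentile over all probes they were Aqp4 -0.27, Th -0.14, Kit -0.13, Apoe -0.047, Ctsb -0.021 and Ctss -0.0095, and with the percentile over spots of the 4 hybrid arrays Aqp4 -0.11. Quantile normalization gave Kit -0.28 and Mpo -0.17, and on the 6 arrays of the slide (chosen after seeing the data) Kit -0.28 and Mpo -0.24. Averaging probes gave Foxa2 1.64, dropping shared probes Itgam 0.12 and Cx3cr1 0.053, and asking for detection on all 4 hybrid arrays Birc5 -0.081, each by the choice of another probe. Slide column as a block, which takes up GFAP-Cre replicate 1 whole, gave Apoe -2.13, Ctsb -1.77 and Ctss -2.56. Why the scalings differ was not tested.

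Of the genes described in the report, leaving out 1 array turned the sign of 28, and most often that array was R26Y replicate 2. Their ranges were Gfap (-0.025 to 1.29), Aqp4 (-0.0014 to 0.18), Aldh1l1 (-0.076 to 1.20), S100b (-1.59 to 0.78), Foxa2 (-1.41 to 0.93), Ptprc (-0.42 to 0.25), Itgam (-1.10 to 0.32), Cx3cr1 (-1.33 to 0.50), Mpo (-0.30 to 1.20), Gpr34 (-4.85 to 0.22), Fzd2 (-0.18 to 7.30), Birc5 (-0.54 to 7.79), Rps19 (-0.036 to 5.22), Klf4 (-0.025 to 7.60), Gap43 (-0.050 to 6.09), Efr3a (-0.41 to 7.17), Tuba1b (-1.37 to 5.95), Ppargc1a (-0.54 to 6.58), L3mbtl3 (-7.57 to 1.60), Tmem86a (-7.21 to 1.70), Zdhhc21 (-6.40 to 2.15), Ceacam12 (-6.88 to 1.24), Apoe (-1.78 to 2.41), Ctsb (-1.55 to 2.24), Ctss (-1.77 to 2.48), Trem2 (-4.64 to 1.46), Aif1 (-3.76 to 1.41) and Snap25 (-1.64 to 0.21).

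List medians moved by more than the spread between replicates in 8 cases. Blood stem and progenitor genes went to -0.25 with quantile normalization and -0.22 on the 6 arrays, and the cell cycle to -0.063 with detection on all 4 arrays. Pluripotency went to 0.32 without shared probes. The p53 response went to -0.025 with quantile normalization, -0.023 on the 6 arrays, 0.049 with the authors' matrix and 0.065 with detection on all 4 arrays. Against R26Y replicate 1 and replicate 2 alone the medians are given in the report. Dim genes have differences that shrink with normexp, and levels near background carry no order.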
